A study of Mus musculus with 26 samples.

Results

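A total of 16488 contacts of baited fragments were kept in mouse wild-type (WT) ESCs, EpiSCs and Nanog-/- ESCs. They are pairs of HindIII restriction fragments on the same chromosome, selected on their reads: each pair had 10 or more reads in each of the 3 deposited contact lists, and was counted once. For 33 of them the only bait was an ultraconserved element and not a promoter. They were 9.52% of the 173262 different pairs that the lists hold within chromosomes. The contacts were compared with pairs that had 10 or more reads in 1 list and did not appear in the others, of which there were 21150 in WT, 18030 in EpiSC and 14161 in Nanog-/- cells.

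The study measured promoter contacts by Promoter Capture Hi-C (PCHi-C), in which chromatin is cross-linked, cut and religated, and the ligation products that contain a promoter are pulled down with RNA baits. WT ESCs were E14Tg2a cells (129P2/OlaHsd) and Nanog-/- ESCs were RCNβH-B(t) cells, 1 line derived from E14Tg2a, at passages 20 to 30. Both were grown on gelatin with 15% FBS and LIF at 1000 U/ml, and hygromycin at 25 µg/ml was present while the Nanog-/- cells were expanded. EpiSCs were an embryo-derived 129S2 line grown on fibronectin in N2B27 with activin A at 20 ng/ml and bFGF at 12 ng/ml. The strain label of all these samples reads C57BL/6, which differs from the growth protocol. Because ESCs and EpiSCs also differ in strain and medium, cell state cannot be told apart from these. PCHi-C was sequenced in 5, 2 and 5 lanes for WT ESCs, EpiSCs and Nanog-/- ESCs, and the replicates were combined into 1 list per cell state, so no contact has a replicate error and no difference between lists was tested.

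The 3 lists were unequal in size, and the Nanog-/- list stood apart. Their pairs within chromosomes held 2173287 reads in WT, 1648996 in EpiSC and 1438547 in Nanog-/- cells. A pair that joins 2 baits can be listed from both ends, and its 2 read numbers differed for 1216 of 7284 such pairs in Nanog-/- ESCs, against 29 of 7298 in WT ESCs and 13 of 5576 in EpiSCs. The higher number was used. RNA-seq, deposited as the median RPKM (reads scaled to transcript length and library size) of each group, gave Nanog at 418 RPKM in WT, 361 in EpiSC and 22.3 in Nanog-/- cells. All Nanog-/- values come from a column named BT12, which was taken to be the RCNβH-B(t) line from the design text and the titles of the RNA-seq samples, an inference that no label states outright. Pou5f1 was at 1159 RPKM in WT ESCs and 1129 in Nanog-/- ESCs. Klf4 and Dppa3 were at 93.0 and 74.1 RPKM in WT ESCs and at 31.7 and 13.6 in Nanog-/- ESCs. Klf2 and Esrrb were at 302 and 210 RPKM in WT ESCs and at 244 and 147 in Nanog-/- ESCs. Klf2 and Esrrb were at 5.56 and 0.775 RPKM in EpiSCs against 302 and 210 in WT ESCs. Klf4 and Dppa3 were at 10.9 and 0.0603 RPKM in EpiSCs. Of primed markers, Fgf5 was at 219 RPKM in EpiSCs against 4.74 in WT ESCs, Pou3f1 at 80.7 against 22.95 and Zic2 at 108 against 29.3. Otx2 was at 78.0 against 39.5 and Dnmt3b at 271 against 210. Relative to the median difference of expressed genes given below, Dnmt3b was lower in EpiSCs (log2 -0.50). Of 10 markers of other cell types with a value, 6, 8 and 10 were at 1 RPKM or more in WT ESCs, EpiSCs and Nanog-/- ESCs. Their sums were 31.2, 731 and 72.3 RPKM, led in EpiSCs by T at 444 and Col1a1 at 137 RPKM. The endoderm markers Gata4, Gata6 and Sox17 were at 18.5, 16.4 and 5.93 RPKM in Nanog-/- ESCs, against 1.29, 0.538 and 0.237 in WT ESCs. T (1.14 against 3.37) and Eomes (2.33 against 2.85) were lower in Nanog-/- ESCs than in WT ESCs. Of the 10 markers, T and Eomes also stand in the list of primed epiblast genes used below, so they do not mark other cells alone in EpiSCs. In these bulk samples, more cells of a type and more RNA per cell cannot be told apart, and the part of such cells in the results was not tested.

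Promoters contact other promoters and distal elements when chromatin folds into loops and compartments. CTCF, a zinc finger protein that binds a directional DNA motif, holds many loops together with the cohesin ring, most often at sites whose motifs face each other. Genes silenced by Polycomb complexes, such as the Hox clusters in pluripotent cells, also lie close together in the nucleus. Contacts of this kind can exist before a gene is active or without activity, whereas other contacts form along with the activation of an enhancer.

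CTCF motifs were more frequent at the ends of kept contacts than at the ends of the pooled contacts found in 1 list. A 12-base CTCF core motif was searched on both strands of all 96056 listed fragments in the GRCm38 sequence. It was present in 6.35% of all baited fragments and in 3.70% of all other listed fragments. Of the kept contacts, 100 had a motif at both ends, which is 0.607% (Wilson 95% interval 0.499% to 0.737%), against 0.324% (0.280% to 0.376%) of the contacts found in 1 list. A motif lay at one end at least in 14.2% and 10.5%. These shares were not split by bait, and kept contacts had both ends baited more often (25.9% against 12.7%). Of baited fragments counted once, 8.39% (7.78% to 9.05%) held the motif in kept contacts and 6.84% (6.43% to 7.27%) in contacts of 1 list. For fragments without a bait the shares were 4.77% (4.37% to 5.21%) and 3.48% (3.30% to 3.67%). Taken by list, contacts only in Nanog-/- ESCs had intervals that overlapped those of kept contacts. The motif was in 7.34% (6.76% to 7.97%) of their baited fragments and 4.24% (3.89% to 4.63%) of the others. The same shares were 6.86% and 3.83% only in WT ESCs and 6.69% and 2.58% only in EpiSCs, with intervals below those of kept contacts. All intervals given here cover counting error only, and contacts that share a bait are not independent.

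The sequences below are the motif sites of 4 kept contacts of 100 kb or more with exactly 1 motif at each end, the motifs facing each other, and are shown because they are the clearest cases of paired sites (the 4 with most reads in their lowest list, chosen after the values were seen). They are read from the plus strand of GRCm38 with the 12-base match in capitals.
Gm12284 bait, left end, chr11:62921204-62921235, motif on the plus strand: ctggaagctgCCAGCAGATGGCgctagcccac
partner of Gm12284, right end, chr11:63135789-63135820, motif on the minus strand: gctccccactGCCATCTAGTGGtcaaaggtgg
partner of Mir499, left end, chr2:155512633-155512664, motif on the plus strand: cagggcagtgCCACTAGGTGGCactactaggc
Mir499 bait, right end, chr2:155627202-155627233, motif on the minus strand: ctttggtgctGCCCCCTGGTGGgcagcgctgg
partner of Kcnc4, left end, chr3:107357320-107357351, motif on the plus strand: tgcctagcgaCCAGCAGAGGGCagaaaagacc
Kcnc4 bait, right end, chr3:107462339-107462370, motif on the minus strand: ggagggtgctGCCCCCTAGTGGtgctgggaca
Ctsw bait, left end, chr19:5463934-5463965, motif on the plus strand: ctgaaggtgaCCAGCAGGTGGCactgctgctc
Gm962 bait, right end, chr19:5568360-5568391, motif on the minus strand: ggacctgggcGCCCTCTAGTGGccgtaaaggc

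The contact of the Gm12284 bait (chr11:62921199-62924853) with its partner 211 kb away had 24 reads in WT, 26 in EpiSC and 25 in Nanog-/- cells. The partner of the Mir499 bait, 112 kb away, had 34, 18 and 24 reads in the same order. Kcnc4, which encodes a voltage-gated potassium channel subunit, and its partner at 102 kb had 23, 26 and 17 reads. The fourth contact joined the baits of Ctsw, a cysteine protease of lymphocytes, and Gm962 at 101 kb, with 31, 32 and 16 reads. As listed, reads were lowest in the Nanog-/- list for the Kcnc4 and Ctsw contacts and in EpiSCs for Mir499, and were nearly equal for Gm12284. These reads were not scaled to the unequal sizes of the 3 lists, so they do not rank the states. Over all kept contacts of 100 to 200 kb, 1.07% (0.733% to 1.55%) had motifs at both ends, against 0.283% (0.206% to 0.388%) of the contacts of that length found in 1 list. The gap was widest in this class. At 50 to 100 kb the shares were 0.760% and 0.367%. They were 0.337% and 0.189% under 20 kb, 0.550% and 0.456% at 20 to 50 kb, and 0.831% and 0.311% at 200 to 800 kb, each with overlapping intervals. Of the 23 kept contacts of 100 to 200 kb with 1 motif at each end, 15 faced each other, 8 lay on the same strand and none were back to back, and of the 32 in 1 list the same numbers were 13, 16 and 3. These are small numbers, and the intervals of the 2 facing shares overlap (44.9% to 81.2% and 25.5% to 57.7%). Over all distances the facing shares were 43.7% of 87 and 35.1% of 154 contacts, also with overlapping intervals.

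Fragment length moves with both the motif and the list. Ends without a bait had a median length of 2.20 kb in kept contacts, 2.78 kb in contacts only in WT ESCs, 1.29 kb in those only in EpiSCs and 2.70 kb in those only in Nanog-/- ESCs. Within fragments under 1 kb without a bait, the motif was present in 0.649% (0.387% to 1.09%) of those in kept contacts and 0.529% (0.398% to 0.703%) of those in contacts of 1 list, with overlapping intervals. Within 1 to 3 kb the shares were 3.23% (2.74% to 3.82%) and 2.08% (1.86% to 2.33%). Within 3 to 6 kb they were 6.93% (6.00% to 7.99%) and 4.73% (4.31% to 5.18%). Above 6 kb they were 13.99% (12.0% to 16.2%) and 11.2% (10.3% to 12.1%), again with overlapping intervals. Motif density was 17.5 matches per Mb in the ends without a bait of kept contacts and 12.3 per Mb in those of contacts found in 1 list, and the median GC content of these ends was 47.7% and 46.1%. By annotation, the ends without a bait held an exon in 35.7% of kept contacts and 30.5% of those in 1 list, an intron in 26.7% and 30.9%, intergenic sequence in 35.1% and 36.6%, and a transcription start site in 2.53% and 2.01%. The lists differed in this too, since exons were at 34.3% and 39.4% of the ends only in WT and only in Nanog-/- ESCs and at 22.2% of those only in EpiSCs.

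Kept contacts were shorter than contacts found only in WT ESCs or only in EpiSCs, but longer than those found only in Nanog-/- ESCs. Their median distance between fragment midpoints was 34.6 kb (95% interval of the median 33.4 to 35.9 kb), with quartiles of 13.2 and 87.7 kb. The medians were 110 kb (108 to 111 kb) for WT ESCs, 88.7 kb (87.3 to 90.2 kb) for EpiSCs and 26.1 kb (25.6 to 26.7 kb) for Nanog-/- ESCs. Contacts under 20 kb made up 37.8% of kept contacts, 7.81% of those only in WT ESCs, 12.3% of those only in EpiSCs and 40.0% of those only in Nanog-/- ESCs. Distance and reads are tied, with a Spearman correlation of -0.84 across kept contacts in WT ESCs, and the reads chose the contacts, so the shorter distance is a description. The 1458 contacts just inside the rule, whose lowest list had 10 reads, had a median distance of 125 kb, and the 1712 just outside, with 9 reads, had one of 135 kb.

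**Figure D1:**
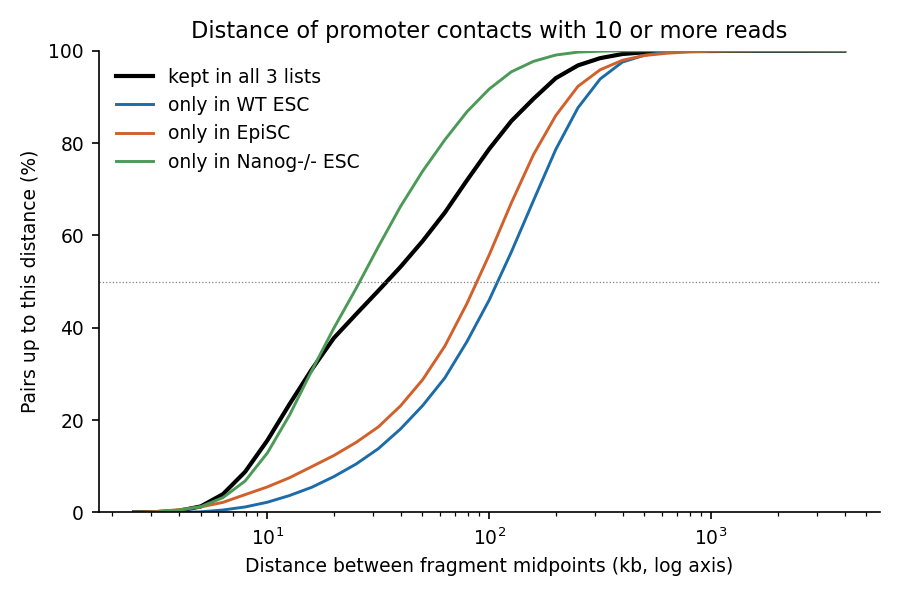
Share of pairs (y axis, percent) up to each distance between fragment midpoints (x axis, kb, log scale) for contacts kept in all 3 lists (black) and contacts found in 1 list only (colours). The curves cross the dotted line at 50% near 34.6 kb for kept contacts, 110 kb for WT ESCs, 88.7 kb for EpiSCs and 26.1 kb for Nanog-/- ESCs.

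How much of a list was kept changed with distance, and in opposite directions between the lists. Of the contacts with 10 or more reads, 24.2% were kept in WT, 31.9% in EpiSC and 36.6% in Nanog-/- cells. In WT ESCs the kept share was 49.0% under 20 kb and 8.02% at 200 to 800 kb, and in EpiSCs it was 59.5% and 13.7%. In Nanog-/- ESCs it was 36.0% under 20 kb, 28.2% at 20 to 50 kb and 57.1% at 200 to 800 kb. The Nanog-/- list thus held few long contacts (1687 at 200 to 800 kb, against 12001 in WT ESCs and 7027 in EpiSCs), of which more than at short distance were also in the other lists.

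Both ends were promoters more often in kept contacts. Of the 16488 contacts, 4276 joined 2 baited fragments, which is 25.9% (25.3% to 26.6%), and 12212 had 1 baited end. The share was 16.6% (16.2% to 17.2%) of contacts only in WT ESCs, 8.39% (7.99% to 8.80%) of those only in EpiSCs and 12.2% (11.7% to 12.7%) of those only in Nanog-/- ESCs. The kept share was higher in each distance class up to 200 kb than that of each single list, with intervals that do not overlap, and the gap to each list was widest at 20 to 50 kb, where the share was 35.1% against 20.2%, 12.2% and 16.0%. At 200 to 800 kb it was 17.1% (14.9% to 19.6%) against 12.8% (11.9% to 13.8%) in WT ESCs and 4.56% in EpiSCs, and its interval overlapped that of the 129 contacts only in Nanog-/- ESCs (10.1%, 5.98% to 16.5%). With the contacts of 1 list weighted to the distance and read classes of the kept ones, their share was 9.48%. Read from the lists, 29.0% (28.3% to 29.7%) of promoter-promoter contacts with 10 or more reads in WT ESCs were kept and 22.9% (22.6% to 23.3%) of the others. The same shares were 46.7% and 28.7% in EpiSCs and 49.5% and 33.6% in Nanog-/- ESCs. In WT ESCs at 10 to 14 reads they were 2.66% (2.26% to 3.12%) and 3.16% (2.93% to 3.41%), with overlapping intervals. In all other read classes of the lists, promoter-promoter contacts were kept more often. A pair of 2 baits can be listed from either end, and the part of this in the shares was not tested. With the lower of 2 read numbers, both ends were baited in 25.8% of kept contacts and 12.7% of those in 1 list.

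**Figure D2:**
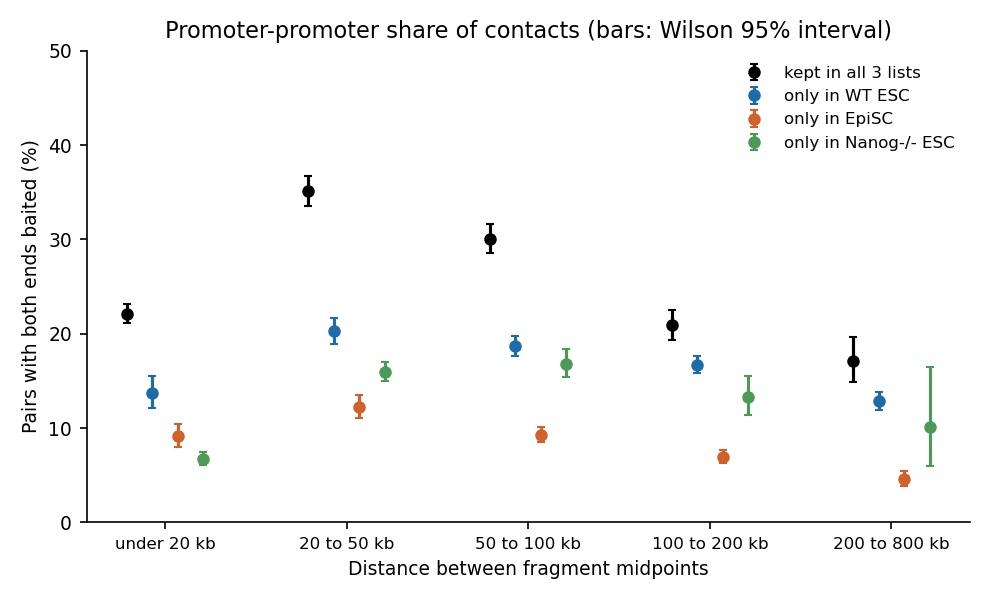
Share of contacts with both ends baited (y axis, percent) in 5 classes of distance (x axis) for kept contacts (black) and contacts found in 1 list only (colours), with Wilson 95% intervals as bars. Kept contacts are at 35.1% at 20 to 50 kb, against 20.2%, 12.2% and 16.0% in WT ESCs, EpiSCs and Nanog-/- ESCs.

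The rule chose the kept contacts on their reads in all 3 lists, so contacts with few reads in any state are left out and the likeness of reads between states is a description. The median was 33 reads in WT, 28 in EpiSC and 20 in Nanog-/- cells, and the Spearman correlation of reads across the 16488 contacts was 0.89 between WT ESCs and EpiSCs and 0.92 between WT ESCs and Nanog-/- ESCs. The lists share the distance of each contact, which itself goes with the reads. After division by the sum over kept contacts, 97.5% lay within 2-fold between EpiSCs and WT ESCs and 99.6% between Nanog-/- and WT ESCs. The contacts with the most reads were short. The bait of Plcb3, a phospholipase C that acts below G-protein-coupled receptors, and a fragment 3.94 kb away with an exon of the same gene had 362 reads in WT, 378 in EpiSC and 298 in Nanog-/- cells. Pdia5, a protein disulfide isomerase of the endoplasmic reticulum, had 572, 439 and 273 reads with an intergenic fragment 5.90 kb away. BC018473 had 455, 356 and 296 reads at 4.96 kb. The other two of the 5 were Gm11735 (376, 247 and 270 reads at 9.50 kb) and 6030455H03Rik (356, 246 and 244 reads at 5.40 kb). As listed, Nanog-/- ESCs held the lowest number in 4 of these and EpiSCs in the fifth, Gm11735. After the scaling, the log2 ratio of Nanog-/- to WT ESCs was -0.38 at Pdia5 and 0.06 to 0.40 at the others.

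A small part of the kept contacts differed in reads between states. Between EpiSCs and WT ESCs, 303 were higher and 116 lower by 2-fold or more after scaling. The largest difference was at Eif2s3x, a translation initiation factor subunit on chromosome X, with 24 reads in WT, 88 in EpiSC and 15 in Nanog-/- cells (log2 ratio of EpiSCs to WT ESCs 2.16). Fads2 and Fads1, which encode fatty acid desaturases, contacted each other over 81.4 kb with 11, 37 and 10 reads (log2 ratio 2.04). Tmem223 and Zbtb3 had 28, 91 and 14 reads over 31.3 kb, Clic1 had 33, 103 and 21 with a fragment holding an exon of Vwa7, and Dact2 had 18, 51 and 19 with an intergenic fragment. EpiSCs were the highest list in all 5. In the other direction, Abt1 on chromosome 13 had 41, 10 and 26 reads with a fragment 93.5 kb away (log2 ratio -1.75), Mir144 and Traf4 had 42, 11 and 19, Cd2 had 41, 11 and 17 over 313 kb, Sfta2 and Gm9573 had 43, 12 and 22, and SNORA70.5 had 56, 17 and 39 with a fragment in Pole. EpiSCs were the lowest list in each of these. The contacts of Eif2s3x, Fads1, Zbtb3 and Clic1 each had an end under 1 kb. No end was that short in the Dact2 contact or in those named as lower in EpiSCs. Ends without a bait had a median length of 1.29 kb in contacts only in EpiSCs. Those only in WT ESCs and only in Nanog-/- ESCs had medians of 2.78 and 2.70 kb. The part of fragment length in these read differences was not tested.

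Between Nanog-/- and WT ESCs, 47 kept contacts were higher and 26 lower by 2-fold or more. 1810063B05Rik had 73 reads in WT, 88 in EpiSC and 241 in Nanog-/- cells with a fragment 12.6 kb away (log2 ratio 2.41). Alpk2, an alpha-kinase, had 120, 122 and 328 reads at 8.58 kb, and Ripk4, a receptor-interacting kinase known from skin, had 115, 145 and 277 at 11.8 kb. Ech1, an enzyme of fatty acid oxidation, had 64, 55 and 153 with a fragment holding an exon of Lgals4, and Cyp2d26, a cytochrome P450, had 12, 11 and 24 over 254 kb. Nanog-/- ESCs were the highest list in these 5, of which 4 were under 20 kb, the distance at which contacts only in the Nanog-/- list were most frequent. The lowest ratios were at Snora20 and Acat2 with 54, 40 and 13 reads (log2 ratio -1.37), at the olfactory receptor genes Olfr1344 and Olfr1347 with 49, 23 and 13, at AC098726.1 with 37, 21 and 10, at the histone genes Hist1h3e and Hist1h2bg with 48, 22 and 13, and at Gtpbp10 and Gm8773 with 58, 47 and 16. Olfactory receptor and histone genes have near-identical copies, so their reads are uncertain.

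Only 10 kept contacts spanned 800 kb or more. The longest joined Rimkla, an enzyme of N-acetylaspartylglutamate synthesis, to a fragment with an exon of Cap1 over 3364 kb, with 43 reads in WT, 25 in EpiSC and 62 in Nanog-/- cells. Bbs4, a subunit of the BBSome of cilia, followed at 3341 kb with 27, 33 and 19 reads. Defb15 had 74, 51 and 80 reads over 2808 kb with a fragment in Defb34, and beta-defensin genes have near-identical copies, so this contact is uncertain. The bait of 1810030J14Rik had 4 contacts of 1048 to 1055 kb with 4 neighbouring fragments about Mptx2 on chromosome 1, one of them the bait of Gm11062, with 31 to 47 reads in WT ESCs, 29 to 44 in EpiSCs and 21 to 46 in Nanog-/- ESCs. Shh, the Sonic hedgehog ligand, and Mnx1, a homeobox factor of motor neurons, were joined over 1010 kb with 27, 19 and 17 reads. Igfbp3, which binds insulin-like growth factors, had 12, 14 and 10 reads over 1034 kb, and Bhlhe22, a neuronal transcription factor, had 21, 11 and 10 over 1006 kb. These last contacts, beyond the 5 longest, were named after their values were seen. The Shh bait (chr5:28463005-28467167) also contacted the Rnf32 promoter over 733 kb with 11, 11 and 10 reads.

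Kept contacts were spread over many promoters. Of 18832 baited gene names, 7225 (38.4%) had at least 1, and 3244 of them had exactly 1, 1209 had 5 or more and 318 had 10 or more. By fragment, 7257 of 19022 baited fragments took part together with 9892 fragments without a bait, of which 1651 (16.7%) were contacted by 2 or more baits. The 15 genes with most kept contacts held 2.81% of them.

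Hoxc5, a homeobox transcription factor gene of the HoxC cluster, had the most, with 55 of its 80 listed contacts kept (68.8%). Its bait (chr15:103013353-103016608) reached 10 other baits, 6 of them Hoxc genes. With Hoxc4, 4.69 kb away, it had 201 reads in WT, 184 in EpiSC and 123 in Nanog-/- cells. With Hoxc8 at 23.7 kb it had 107, 100 and 66 reads, with Hoxc10 at 51.5 kb 48, 27 and 25, with Hoxc11 at 61.5 kb 64, 32 and 32, and with Hoxc12 at 78.8 kb 47, 30 and 32. As listed, WT ESCs held the highest number for each of these partners. On the other side, reads were higher again at a run of fragments beyond Smug1, a uracil-DNA glycosylase gene. The intergenic fragment chr15:103175876-103179485, 163 kb from the bait, had 59, 67 and 37 reads, and chr15:103170893-103173407 had 42, 74 and 32. Here EpiSCs held the highest number as listed. Kept contacts summed to 819550 reads in WT, 672482 in EpiSC and 509860 in Nanog-/- cells. The reads of Hoxc5 given here were not scaled for this, so they do not rank the states. Only 2 contacts of Hoxc5 were found in WT ESCs alone, 2 in Nanog-/- ESCs alone and 0 in EpiSCs alone. The gene was nearly silent, at 0.0677 RPKM in WT, 0.143 in EpiSC and 0.212 in Nanog-/- cells.

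**Figure D3:**
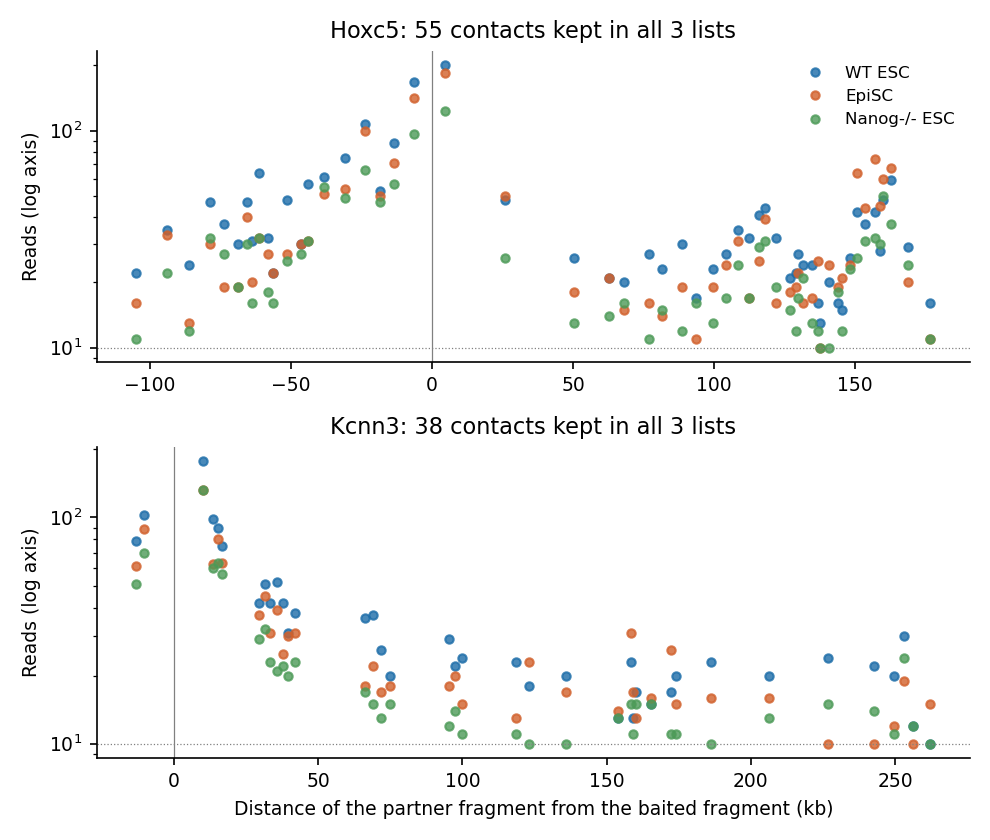
Reads (y axis, log scale) of each kept contact of Hoxc5 (top, 55 contacts) and Kcnn3 (bottom, 38 contacts) in WT ESCs, EpiSCs and Nanog-/- ESCs against the distance of the partner fragment from the baited fragment (x axis, kb, negative towards lower coordinates). The dotted line marks the minimum of 10 reads, and Hoxc5 has a second group of high reads near 163 kb.

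Kcnn3, which encodes a calcium-activated potassium channel, was next with 38 of 89 contacts kept at a median distance of 98.6 kb. Of its 35 partners without a bait, 22 lay in introns, and its promoter contacts were with Adar, an RNA-editing enzyme (186 kb; 23 reads in WT, 16 in EpiSC and 10 in Nanog-/- cells), and Chrnb2, an acetylcholine receptor subunit (243 kb; 22, 10 and 14 reads), besides the bait named 4632404H12Rik. Gm12339 had 33 kept contacts and Gm17649, whose bait also holds the start site of Hoxc13, had 32. S100a14, in a cluster of calcium-binding S100 genes, had 31, of which 10 were with other baits, among them S100a1, S100a3, S100a4, S100a6 and S100a16. Dmkn, an epidermal gene, and Zbtb39, a zinc finger gene, had 30 each. Cadm4, a cell adhesion molecule, and Tekt4, a tektin of cilia and flagella, had 29 each, Dagla, a diacylglycerol lipase, and Hoxc8 28 each, A730018C14Rik and Ffar3, a short-chain fatty acid receptor, 27 each, Plscr3, a phospholipid scramblase, 26, and Psmb10, a subunit of the immunoproteasome, 25, as many as the small RNA gene SNORA38.2. Several of these are neighbours: Hoxc5, Hoxc8 and Gm17649 lie in one cluster, and Dmkn and Ffar3 are near each other on chromosome 7 and in contact.

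**Figure D4:**
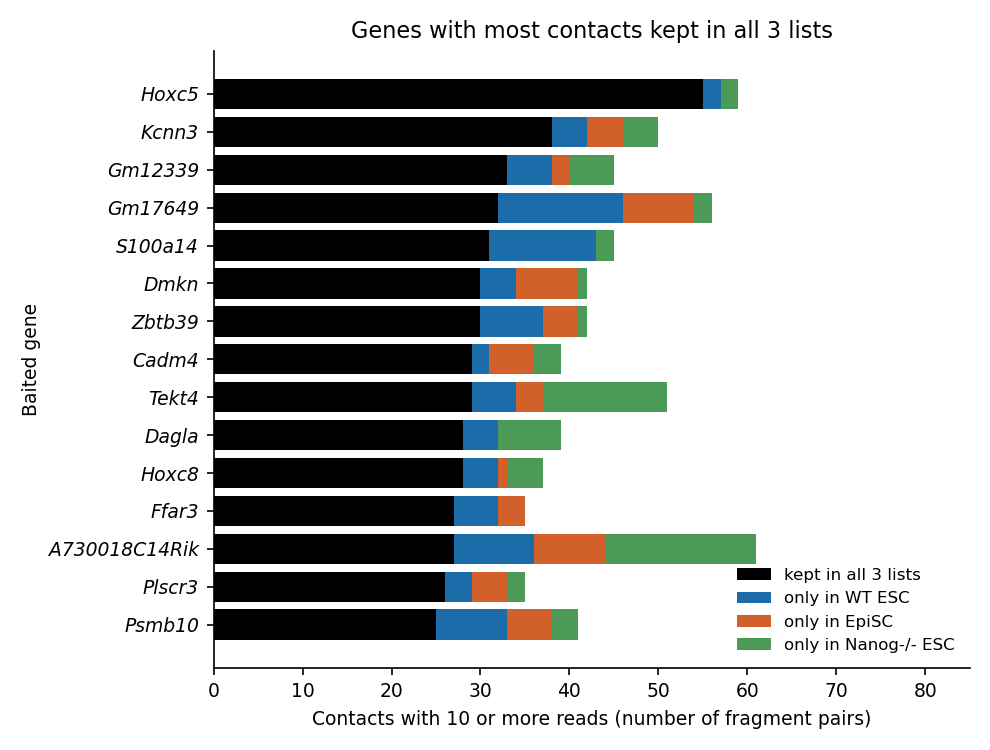
Number of contacts with 10 or more reads (x axis) of the 15 genes with most kept contacts (y axis), as kept contacts (black) and contacts found only in WT ESCs, EpiSCs or Nanog-/- ESCs (colours). Hoxc5 has 55 kept contacts and 2, 0 and 2 of the others, and A730018C14Rik has 27 and 9, 8 and 17.

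Of these 15 genes, 14 have a value in the RNA-seq table, and most were low. Psmb10 was the highest at 45.2 RPKM in WT, 109 in EpiSC and 43.0 in Nanog-/- cells, followed by Cadm4 (15.9, 44.1 and 12.2), Plscr3 (12.7, 46.1 and 14.1) and Zbtb39 (8.86, 28.4 and 9.90). The others were under 1 RPKM in WT ESCs. Tekt4 was at 0.0269, 3.30 and 0.0458 RPKM, and Dagla at 0.802, 4.84 and 1.39. The promoters of 9 of the 15 are in the RefSeq table of GRCm38.p6, and their content of CG dinucleotides ranged from 3 to 42, against a median of 7 over 27025 promoters, of which 94.2% hold at least 1. Zbtb39 (42) and Tekt4 (3, as in Psmb10 and A730018C14Rik), with 30 and 29 kept contacts, are printed because they are at the ends of that range, with each CG in capitals and 250 bases before to 50 after the start site.
Zbtb39, chr10:127739280-127739579, plus strand: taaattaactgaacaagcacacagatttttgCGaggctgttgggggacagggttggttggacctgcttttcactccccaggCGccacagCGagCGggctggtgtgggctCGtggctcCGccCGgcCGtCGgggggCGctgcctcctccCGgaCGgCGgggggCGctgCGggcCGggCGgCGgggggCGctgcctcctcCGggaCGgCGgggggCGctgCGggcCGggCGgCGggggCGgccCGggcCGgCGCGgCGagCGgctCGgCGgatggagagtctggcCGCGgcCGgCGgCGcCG
Tekt4, chr17:25471340-25471639, plus strand: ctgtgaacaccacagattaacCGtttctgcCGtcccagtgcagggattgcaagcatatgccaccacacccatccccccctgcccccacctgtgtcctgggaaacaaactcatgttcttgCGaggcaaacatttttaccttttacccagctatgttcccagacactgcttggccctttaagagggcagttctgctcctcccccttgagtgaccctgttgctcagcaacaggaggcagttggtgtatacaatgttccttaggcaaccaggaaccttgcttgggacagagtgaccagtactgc

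Genes of the Hox clusters had kept contacts far more often than the 38.4% of all baited genes: 29 of 31 did (93.5%, 79.3% to 98.2%), and 29.1% of their listed contacts were kept against 10.1% over all genes. The clusters differed among themselves. Hoxc genes had 142 kept contacts, 36.1% of those listed, with medians of 32, 23.5 and 20.5 reads in WT ESCs, EpiSCs and Nanog-/- ESCs. Hoxb genes had 58 (20.6%; 37, 22.5 and 20.5 reads), Hoxa genes 43 (25.7%; 39, 26 and 23 reads) and Hoxd genes 9 (8.91%; 21, 17 and 12 reads). No Hoxc gene with a value was above 1.61 RPKM in any state, and the highest values of Hoxa genes were 1.42, 1.24 and 9.14 RPKM. Hoxc11, with 22 kept contacts, was at 0, 0.0453 and 0.0488 RPKM.

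Other gene lists lay nearer to the share over all genes or rest on few members. Replication-dependent histone genes had a kept contact in 24 of 31 cases (77.4%, 60.2% to 88.6%), led by Hist1h2ae with 8 and Hist1h4c with 7. Imprinted genes had one in 21 of 34 (61.8%, 45.0% to 76.1%), with Igf2 at 7, Peg3 at 5 and Cd81 at 3. The intervals of mesendoderm and primitive endoderm genes (9 of 17, 52.9%), cytosolic ribosomal protein genes (25 of 52, 48.1%), glycolysis genes (11 of 23, 47.8%), Polycomb-target developmental regulators (32 of 76, 42.1%), protocadherins (11 of 29, 37.9%), Zfp genes (80 of 234, 34.2%) and genes of cohesin, CTCF and condensin (2 of 13, 15.4%) held the share over all genes. Olfactory and vomeronasal receptor genes were below it, with 126 of 684 (18.4%, 15.7% to 21.5%). Counted by contact, 10.4% of the listed contacts of histone genes were kept, 7.96% of those of imprinted genes and 5.88% of those of receptor genes. The share was 10.1% over all genes. Wnt1, a Wnt ligand and a Polycomb target, had 14 kept contacts, among them Wnt10b at 9.55 kb with 193, 150 and 132 reads and Adcy6 at 180 kb with 22, 15 and 13. Rps19 had 7 in the ribosomal list, Zfp541 15, Pcdh1 16, Olfr5 8 and Ncapg 5. Evx1, a homeobox gene beside the HoxA cluster, had 8 and was in both the Polycomb and the mesendoderm list. Gapdh, a glycolytic enzyme, had 15 kept contacts of 41, with 31 reads in WT, 47 in EpiSC and 30 in Nanog-/- cells to the Iffo1 promoter and 22, 20 and 12 to a fragment with an exon of Chd4.

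Genes of the pluripotency lists had kept contacts at shares whose intervals held the 38.4% of all baited genes. Of the naive pluripotency genes 5 of 15 had one (33.3%, 15.2% to 58.3%), of the general pluripotency genes 5 of 12 (41.7%, 19.3% to 68.0%) and of the primed epiblast genes 3 of 16 (18.8%, 6.59% to 43.0%). Of their listed contacts 5.04%, 8.99% and 3.29% were kept, against 10.1% over all genes. Nanog itself kept 2 of 26 listed contacts, both with intergenic fragments next to each other on chromosome 6. The first (chr6:122666159-122672604, 38.9 kb from the bait) had 15 reads in WT, 15 in EpiSC and 11 in Nanog-/- cells, and the second (chr6:122664079-122666158, 43.2 kb) had 13, 20 and 11. These contacts were thus also present where Nanog RNA was at 22.3 RPKM. Esrrb, an orphan nuclear receptor of naive cells, kept 2 of 22, one of them with a fragment in an intron of Ift43 at 266 kb (13, 13 and 10 reads) and the other with the U6.466 bait at 291 kb (20, 11 and 11), while its RNA was at 210, 0.775 and 147 RPKM. Klf2, a Krüppel-like factor, kept 1 at 5.74 kb with 84, 87 and 43 reads, although it was at 5.56 RPKM in EpiSCs. Dppa5a and Ooep, neighbouring genes, were joined with 31, 23 and 12 reads over 9.65 kb.

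Pou5f1, which encodes OCT4, kept 1 of 7 listed contacts, with the Psors1c2 promoter at 28.7 kb (29 reads in WT, 18 in EpiSC and 16 in Nanog-/- cells). Dnmt3b, a de novo DNA methyltransferase, kept 3 of 6, with 39, 35 and 24 reads at 15.5 kb, 35, 40 and 20 at 17.0 kb, and 26, 21 and 13 with the Commd7 promoter at 29.1 kb. Trim28, a co-repressor of retroelements, kept 2 of 9. Sox2, Klf4, Lin28a, Otx2, Fgf5 and Eomes kept none. Zic2, a zinc finger factor of primed cells, kept 5 of 43, of which 4 were with fragments in introns of Clybl at 137 to 248 kb. The farthest had 13, 23 and 11 reads and the next, at 219 kb, 14, 25 and 12, with EpiSCs highest in both, and the nearest of the 4 had 12, 12 and 11. Zic2 was at 29.3 RPKM in WT, 108 in EpiSC and 4.62 in Nanog-/- cells. T, a mesoderm factor at 3.37, 444 and 1.14 RPKM, kept 1 at 6.44 kb with 87, 63 and 58 reads.

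Genes with kept contacts had a slightly higher median expression than the pooled genes whose contacts were found in 1 list, but not than those of each list. Over the 6008 genes with a value, the median was 5.16 RPKM in WT ESCs (4.69 to 5.74), 11.1 in EpiSCs (9.81 to 12.7) and 5.34 in Nanog-/- ESCs (4.81 to 6.06). Over 6104 genes with no kept contact but with a contact of 1 list, the medians were 3.91 (3.56 to 4.42), 8.89 (7.96 to 9.83) and 4.30 (3.79 to 4.80). All 15313 baited genes with a value had medians of 3.99, 8.71 and 4.29 RPKM. At 1 RPKM or more in WT ESCs were 67.0% of genes with kept contacts and 62.1% of the others. The medians of the EpiSC group were higher for all these sets, so levels are compared within a state. The genes whose contacts were found only in WT ESCs were lower, at 1.94 RPKM (1.25 to 2.52) in WT ESCs over 1645 genes, those only in EpiSCs were at 15.1 RPKM (12.5 to 17.2) in EpiSCs over 1245 genes, and those only in Nanog-/- ESCs were at 4.18 RPKM (3.10 to 5.70) in Nanog-/- ESCs over 745 genes.

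More kept contacts did not go with more expression. Genes with 1 kept contact had a median of 5.35 RPKM in WT ESCs (4.76 to 6.33) and those with 2 to 4 had 5.86 (5.02 to 6.94), whereas the 267 genes with 10 or more had 1.89 (1.22 to 3.01). In EpiSCs the last group was at 4.72 RPKM (2.16 to 6.61) and in Nanog-/- ESCs at 2.17 (1.60 to 2.96). By level in WT ESCs, 31.9% of genes under 0.1 RPKM had a kept contact, 38.5% at 0.1 to 1, 42.3% at 1 to 10, 40.9% at 10 to 50 and 43.7% at 50 RPKM or more. The lowest class stood below the others, and the 3 highest had overlapping intervals. Of kept promoter-promoter contacts with RPKM at both ends, 50.2% (48.4% to 51.9%) joined baits that both had a gene at 1 RPKM or more in WT ESCs and 19.3% joined baits that both had none, against 44.4% (42.4% to 46.3%) and 26.8% of those only in WT ESCs. By the RPKM of their own state, the shares were 61.0% (58.0% to 63.9%) and 12.2% of those only in EpiSCs and 50.5% (47.7% to 53.3%) and 18.3% of those only in Nanog-/- ESCs, so kept contacts did not stand above all lists.

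**Figure D5:**
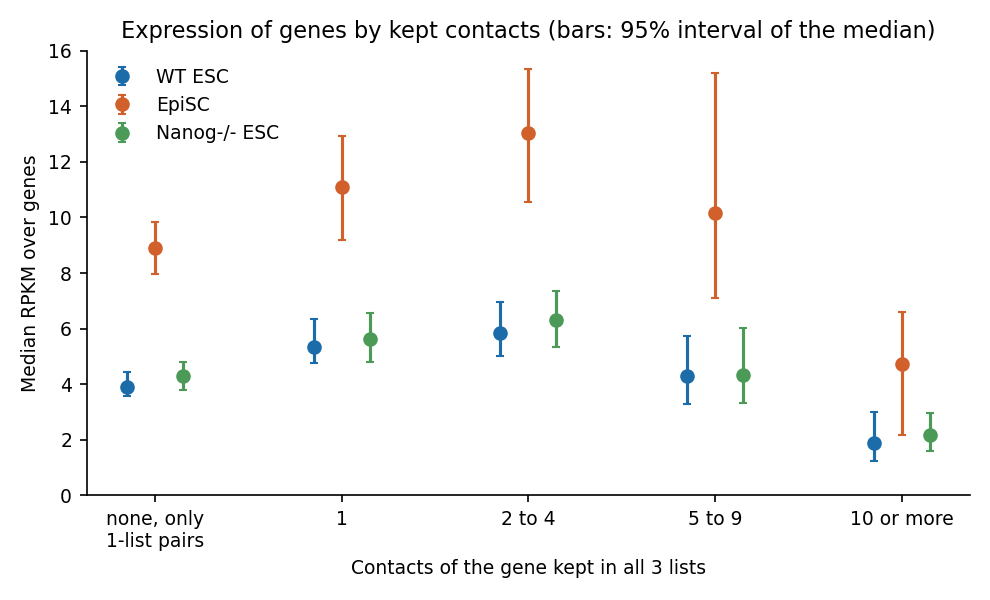
Median RPKM over genes (y axis) by the number of their kept contacts (x axis, the first class being genes with contacts of 1 list only) in WT ESCs, EpiSCs and Nanog-/- ESCs, with 95% intervals of the median as bars. In WT ESCs the median is 5.86 RPKM for 2 to 4 kept contacts and 1.89 RPKM for 10 or more.

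Many genes differed in expression between states while their contacts stayed listed. On the scale of log2(RPKM + 1), genes at 1 RPKM or more in either state had a median difference of 0.86 between EpiSCs and WT ESCs and 0.07 between Nanog-/- and WT ESCs, and changes are given relative to these medians. In EpiSCs, 583 of 6008 genes with kept contacts were higher by 2-fold or more (9.70%, 8.98% to 10.5%; 9.72% of all baited genes) and 962 were lower (16.0%, 15.1% to 17.0%; 14.8% of all). In Nanog-/- ESCs, 88 were higher (1.46%; 1.46% of all) and 103 lower (1.71%; 1.63% of all). These shares are close to those of all baited genes, of which the genes with kept contacts are a part, with overlapping intervals (14.2% to 15.3% of all for genes lower in EpiSCs). Of 6104 genes with contacts of 1 list only, 9.70% were higher in EpiSCs and 13.8% (12.9% to 14.6%) lower. The second interval lies below that of genes with kept contacts. In Nanog-/- ESCs the same shares were 1.39% and 1.64%. Without the centring, 1827 genes with kept contacts were higher and 362 lower in EpiSCs, so the balance of the directions rests on it. A gene at 0 RPKM in both states, such as Olfr5, sits at log2 -0.86 after centring. Limited to genes at 1 RPKM or more in at least 1 state, 583 genes with kept contacts were higher and 758 lower in EpiSCs. The same limit was not applied to all baited genes. No value per sample is given, so none of these was tested.

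Chst1, a carbohydrate sulfotransferase, was at 1.51 RPKM in WT, 113 in EpiSC and 0.472 in Nanog-/- cells and kept 12 of 43 contacts. All 12 partners were intergenic fragments 191 to 253 kb away, with 260 reads in WT, 354 in EpiSC and 170 in Nanog-/- cells in all. A further 17 of its contacts were found only in EpiSCs. Tcfap2c, the transcription factor AP-2 gamma, went the other way in RNA, at 32.8, 1.12 and 15.4 RPKM, and its 10 kept contacts had 194, 282 and 158 reads in all. One of them joined it to Bmp7, a bone morphogenetic protein, over 391 kb with 14, 19 and 19 reads. Bmp7 was itself at 3.54, 84.6 and 2.30 RPKM. In both Chst1 and Tcfap2c the EpiSC list held the highest sum of reads, whereas their RNA differed in opposite directions.

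The other genes with 5 or more kept contacts and the largest differences were these. Higher in EpiSCs were Pkdcc (6.996 RPKM in WT ESCs and 282 in EpiSCs), Hsd11b2 (1.12 and 46.7), Igf2 (9.74 and 229), Igfbp3 (35.9 and 546), Smoc2 (0.332 and 18.2) and Scd2, a fatty acid desaturase (246 and 3498). Igf2, an imprinted growth factor gene, kept 7 contacts of 122 to 349 kb, among them the Mrpl23 bait at 137 kb with 25 reads in WT, 17 in EpiSC and 10 in Nanog-/- cells. Lower in EpiSCs were Rpl36-ps3 (80.5 and 1.52 RPKM), Ly6g6e (28.8 and 0.375), Gm17511 (33.8 and 0.773), Rpl36 (1513 and 77.8), Ano9 (33.9 and 0.891), Rec8, a meiotic cohesin subunit (13.8 and 0.396), and Usp50 (11.3 and 0.358). Ribosomal protein genes such as Rpl36, and Gapdh (1016 and 119 RPKM), have near-identical pseudogene copies, so their RPKM are uncertain.

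In Nanog-/- ESCs the largest differences among such genes were at Hand1, a trophoblast and heart factor (0.705 RPKM in WT ESCs and 4.49 in Nanog-/- ESCs), Hoxa5 (0.0785 and 2.29), Thbs2 (3.25 and 11.4), Cbr3 (44.6 and 126) and Dok1 (3.49 and 11.5) among those higher. Zic2 (29.3 and 4.62), Ano9 (33.9 and 8.66), Slc4a5 (10.8 and 2.41), Psors1c2 (10.6 and 2.41) and Gpr56 (6.46 and 1.46) had the largest differences the other way. Psors1c2 kept 7 contacts with 256 reads in WT, 246 in EpiSC and 164 in Nanog-/- cells, one of them that with Pou5f1. Hoxa5 kept 6 with 241, 148 and 145 reads.

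Read ratios of kept contacts were set beside the RNA of the baited gene. Contacts found with the RNA in 1 state alone, such as the 17 of Chst1 in EpiSCs, are outside the kept set, so the range of these ratios was limited by the rule. For contacts with 1 baited end and 1 gene name, the median log2 ratio of reads between EpiSCs and WT ESCs was 0.04 (0.01 to 0.07) over 1149 contacts of genes that were 2-fold or more higher in EpiSCs, 0.02 (0.01 to 0.03) over 7303 contacts of genes within 2-fold, and 0.05 (0.02 to 0.08) over 1611 contacts of genes that were lower. Between Nanog-/- and WT ESCs the same medians were 0.10 (0.03 to 0.13) over 142 contacts, 0.02 (0.01 to 0.02) over 9760 and 0.16 (0.10 to 0.23) over 161, the first and last above that of genes within 2-fold. The medians for higher and for lower genes had the same sign in both comparisons.

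The genes with most contacts of 1 list were, with the exception of A730018C14Rik, not among the 15 with most kept contacts. Myod1, a muscle determination factor at 0.0880 RPKM in WT ESCs and 0 in EpiSCs, had 44 contacts only in EpiSCs and 11 kept, and Capn8, Gm11158, Grik4 and Pex26 had 33, 31, 27 and 27 there. Cyp2d26 had 50 only in Nanog-/- ESCs and 12 kept, followed by Gm12200 with 20, A530016L24Rik with 19, A730018C14Rik with 17 and Vstm2l with 16. In WT ESCs 0610010O12Rik had 37 and 3 kept, Gm14188 29, Slc6a18 23, and Gm11567 and AC102689.1 21 each. Grik4, a glutamate receptor subunit, was high on both counts, with 23 kept contacts at a median distance of 349 kb.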

How the data were processed

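The 3 contact lists were used as deposited. By the study's methods the authors mapped and filtered PCHi-C reads with HiCUP, scored pairs of HindIII fragments with CHiCAGO, and normalized and combined the replicates. The submitters' processing notes name Bowtie 1.1.0. The read number of each pair was treated as a score on the authors' scale because the combined replicates are not raw counts, and the deposited CHiCAGO score, a weighted measure of reads over the background at that distance, is 5 or more throughout. Sequencing depth per library is unknown from these lists. The authors deposited RNA-seq as RPKM, reduced to the median of each group, beside log2 fold changes and p-values of their own, which were not used. The submitters' processing notes name Trim Galore and TopHat for RNA-seq.

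Entries were reduced to different fragment pairs, with 10 or more reads as the minimum. Fragment ends were checked against HindIII sites of GRCm38. Shares have Wilson 95% intervals and medians exact binomial intervals from order statistics, which cover counting error only. RPKM were compared as log2(RPKM + 1), centred on the median difference of genes at 1 RPKM or more in either state. No test was run, since each list is 1 combined value per cell state. Functions were tested on simulated data. Genes were named by fixed rules: most kept contacts, most reads, longest, largest ratio between lists, largest expression difference among genes with 5 or more, and the leading members of each gene list. The members and lists were chosen with earlier results of these data known. ChIP-seq samples were not analysed here. Python 3.11.15, numpy 2.4.6, pandas 2.3.3, scipy 1.17.1 and matplotlib 3.10.9 were used.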

Additional observations from a re-analysis of the deposited data

Results flagged for a closer look

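Pairs of fragments on different chromosomes lie outside the comparisons above. Of 991 such pairs, 170 were in all 3 lists and 33 had 10 or more reads in each, with medians of 25 reads in WT, 22 in EpiSC and 15 in Nanog-/- cells. The bait of Gm16040 on chromosome 11 took part in 8 of them, that of Mad2l1 on chromosome 6 in 5, and those of Gm11399 and Sfi1, which lie near each other on chromosome 11, in 3 each. Gm11399 and a fragment on chromosome 5 had the most reads, with 99 in WT, 58 in EpiSC and 54 in Nanog-/- cells. Whether the ends of these pairs have near-identical copies elsewhere was not checked, so their reads are uncertain.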

How the results depend on the processing

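The number of kept contacts depended on the rule, being 8066 with a minimum of 20 reads and 7937 with a CHiCAGO score of 7 or more. The genes with a kept contact were 4539 at that score. The median distance was 75.4 kb with a minimum of 5 reads, 13.3 kb with 20, 47.8 kb at the score of 7, 28.1 kb with minimums scaled to each list's total reads, 29.5 kb between facing fragment edges and 25.1 kb as the median over baits. Contacts of 1 list under the same settings had medians of 152, 18.7, 106, 41.5, 68.0 and 59.3 kb. The share with both ends baited was 26.9%, 24.0% and 30.3% with 5 reads, 20 reads and the score of 7, against 15.4%, 10.1% and 15.9% for contacts of 1 list. CTCF motifs were at both ends of 0.397% of kept contacts with a minimum of 20 reads, against 0.253%. Counting each gene once per kept contact gave medians of 4.01, 8.76 and 4.16 RPKM in WT ESCs, EpiSCs and Nanog-/- ESCs, and genes at 1 RPKM or more in at least 1 state had 12.4, 26.1 and 12.8. Without centring, 1827 genes with kept contacts were higher and 362 lower in EpiSCs. With a pseudocount of 0.1, 289 were higher and 245 lower in Nanog-/- ESCs. In the other 42 recomputed values the kept contacts stayed within their interval or within 1.5 times the count. In none of the settings recomputed for both did the order of kept contacts and the pooled contacts of 1 list turn. The order against each list was not recomputed. Counting each gene once per kept contact had no counterpart for contacts of 1 list. Its medians were below the main 1-list medians in EpiSCs (8.89 RPKM) and Nanog-/- ESCs (4.30), and above that in WT ESCs (3.91). The median RPKM of genes with contacts of 1 list came near that of kept contacts under the scaled minimums, at 4.64 in WT ESCs against 5.18. Hoxc5 had the most kept contacts except with a minimum of 5 reads, where Dmkn had 61. The lower read number of contacts listed from both ends, an alternative chosen after seeing the data like those for the CTCF motif, left 16463 contacts. No paired analysis was possible because the lists are combined over replicates and the results come from no test. Contacts under the score of 5 are not listed, so absence from a list does not show absence of contact.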

Other observations

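Kept contacts were unevenly spread over the chromosomes. Chromosome 17 had the highest share of its listed contacts kept, 12.7% (1108 contacts, 1.38 per baited fragment), followed by chromosome 7 with 11.4% and chromosome 15 with 11.0%. Chromosome X had the lowest, 3.52% (78 contacts, 0.144 per baited fragment), at a median distance of 11.3 kb. Chromosomes 18 and 13 came next, at 6.21% and 6.78%.

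Fragments joined by kept contacts formed 3398 connected groups, of which 1543 were single pairs and 381 had 10 or more fragments. The largest lay on chromosome 7 (30229647 to 30970268 in GRCm38) with 109 fragments and 183 contacts, and held the genes Dmkn, Krtdap and Sbsn of the epidermis, the fatty acid receptor genes Ffar1, Ffar2 and Ffar3, and the immune adaptor genes Tyrobp and Hcst. The HoxC group on chromosome 15 had 77 fragments and the most contacts, 194. A group on chromosome 17 (34995055 to 35300315) held 179 contacts among genes of the major histocompatibility region, among them Tnf, Aif1, Msh5 and Clic1. Another on chromosome 15 (101334402 to 101985206) held 118 contacts among 61 fragments of the type II keratin cluster. On chromosome 1, Wnt6, Wnt10a and Ihh, which encode secreted signalling proteins, lay in a group of 67 fragments together with Des, the muscle intermediate filament gene. The groups follow from the rule that chose the contacts and were not tested.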
